A study of Homo sapiens with 5 samples.

Results

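FOXA1 knockdown combined with a block of the TGF-beta receptor kinase was set against a control hairpin in LNCaP cells, 1 bead array on each side. LNCaP is an androgen-responsive human prostate cancer line. One culture carried a lentiviral hairpin against FOXA1 (shFOXA1) and received LY2157299 at 10 µM for 3 days. The other culture carried a control hairpin (shCtr). Both were grown in RPMI with 10% serum, selected with puromycin 48 h after infection, and are labelled day 10. The labels do not say for each array whether the shCtr culture received vehicle. Members of the comparison were the probes with 1 gene symbol and a detection p-value below 0.01 on either of these arrays, which gave 14700 of 47306 probes. They read 11019 of the 20044 genes named on the array. A further 15 genes had a detected probe but are left out, since the probe chosen to read them was detected on other arrays of the series only, and none of them had a probe 2-fold apart. The series also holds an array of shFOXA1 without LY2157299, whose values stand beside the others below, and arrays of LNRII, an LNCaP derivative with added TGFBR2, given TGFB3 at 5 ng/ml or vehicle for 3 days. None of the 3 TGFBR2 probes was detected on either LNRII array, so these arrays do not show the added gene, and whether the probes can read it was not tested.

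FOXA1 is a pioneer transcription factor that opens chromatin for other transcription factors in luminal prostate cells. TGF-beta ligands bind the type II receptor TGFBR2, which activates the type I receptor kinase TGFBR1, and this kinase phosphorylates SMAD2 and SMAD3, which enter the nucleus with SMAD4. LY2157299 (galunisertib) inhibits the TGFBR1 kinase. The comparison asks what differs from control cells when FOXA1 is lowered and this kinase is inhibited. Hairpin and inhibitor are both present on one side and both absent on the other, so their effects cannot be told apart within it.

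Values are log2 intensities after background correction and quantile normalization over the 5 arrays, and signed values are log2 differences, shFOXA1 with LY2157299 minus shCtr. A gene is called higher or lower if it differed by at least 2-fold. No condition was replicated, so nothing could be tested and no difference has a replicate check. The error that can be had comes from genes read by 2 probes. Over 2585 such genes detected on both arrays, the SD of a difference read by 1 probe was 0.18, a measurement error that leaves out how cultures vary. Where a probe was detected on one side only, the other side was set to the lowest detected value of its array (4.71 with shFOXA1 and LY2157299, 4.68 with shCtr) unless its own value was higher. Such a difference is a lower bound, written "at least" or "or lower". Of the 11019 genes, 943 rest on such a floor, 409 detected with shFOXA1 and LY2157299 alone and 534 with shCtr alone. At the edge of the detection rule, the 137 probes just inside (detection p 0.00909) and the 108 just outside (0.01039) had the same median of 4.70 on the brighter array. In bulk RNA fewer cells of a kind and less RNA per cell cannot be told apart.

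The targeted gene was lower but far from absent. FOXA1 read 11.30 with shFOXA1 and LY2157299, 11.26 with shFOXA1 alone and 11.82 with shCtr. The array with both treatments thus held 69.9% of the control signal, a difference of -0.52, larger than the probe SD and short of 2-fold. The 9 luminal prostate markers analysed, among them KLK3, KLK2, FOLH1, HOXB13, KRT8, KRT18 and EPCAM, were detected on all 3 LNCaP arrays. None of 6 stromal markers was detected with shFOXA1 and LY2157299 or with shCtr, and 1 was detected with shFOXA1 alone. Of 4 leukocyte markers with a probe, CD14 and LYZ were detected with shFOXA1 and LY2157299 and none with shCtr. CD14 read 4.81 against 4.66, close to the floor, and its part in the results below was not tested. Detected on both arrays were the endothelial marker VWF, the basal marker KRT14 and the neuroendocrine marker ENO2. With shFOXA1 and LY2157299 against shCtr, VWF read 6.29 and 6.57, KRT14 5.11 and 4.74, and ENO2 5.87 and 5.48.

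Most genes differed little. The median difference was 0.00, 94.6% of genes lay within 1.5-fold, and the 5th and 95th percentiles were -0.44 and 0.48. At 2-fold, 101 genes (0.917%) were higher and 57 (0.517%) were lower. These shares are the background against which the counts of gene lists below are read. The lists were chosen with earlier results of these data known, so a count above that background is a description and no test. Between 2-fold and 3-fold lay 69 higher and 41 lower genes, and 15 higher and 12 lower genes differed at least 4-fold. A floor carries 8 calls of higher genes and 4 of lower genes. With no background correction the counts were 37 higher and 20 lower genes. The calls nearest to the threshold were KIAA0408 at 1.002 and CLDN8 at -1.02 inside it, and TAF15 at 0.999 and ADH1C at -0.997 outside it. These genes were named after their values were seen.

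**Figure D1:**
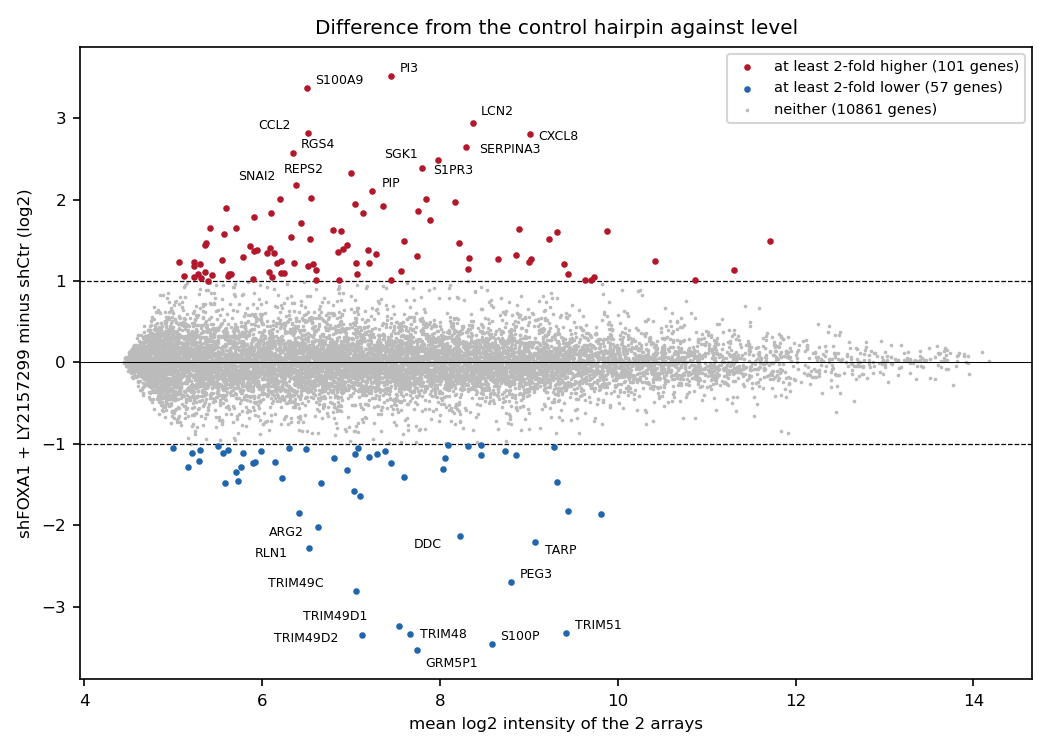
Log2 difference (shFOXA1 with LY2157299 minus shCtr, vertical axis) against the mean log2 intensity of both arrays (horizontal axis) for 11019 genes. Dashed lines mark 2-fold, red points are the 101 higher and blue points the 57 lower genes, and the 12 largest differences in each direction are named, led by PI3 at 3.52 and GRM5P1 at -3.54.

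The largest increases were those of secreted defence proteins, chemokines and signalling regulators. PI3, which encodes the elastase inhibitor elafin, read 9.21 with shFOXA1 and LY2157299, 8.47 with shFOXA1 alone and 5.69 with shCtr, 11.5-fold higher than control. S100A9, a subunit of the antimicrobial complex calprotectin, read 8.19, 7.96 and 4.81 in the same order, a 10.4-fold difference. Its partner S100A8 was not detected with shCtr and read 5.86 with both treatments and 6.17 with shFOXA1 alone, at least 2.27-fold higher. Both calprotectin subunits thus stood above control on each knockdown array. LCN2, the iron-siderophore binding lipocalin, read 9.84, 9.03 and 6.90. For the monocyte chemokine CCL2 the levels were 7.93, 7.30 and 5.11. CXCL8, the neutrophil chemokine interleukin-8, read 10.42, 9.38 and 7.61, and its second probe gave a difference of 2.39 against 2.81 on the first. In these 3 genes the culture with LY2157299 was the brightest of the LNCaP arrays.

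The other members of the 12 largest increases included regulators of proteolysis, signalling and transcription. SERPINA3, the serine protease inhibitor antichymotrypsin, read 9.62 with shFOXA1 and LY2157299, 9.41 with shFOXA1 and 6.97 with shCtr. SGK1, the serum- and glucocorticoid-regulated kinase, read 9.23, 9.35 and 6.74, and its next brightest probe differed by 2.31. REPS2, a protein of receptor endocytosis, read 8.16, 8.25 and 5.83. These 3 genes lay at least 5.02-fold above control with both treatments and moved little between the knockdown arrays. SNAI2, the zinc finger repressor Slug, read 7.47, 7.27 and 5.29, and its second probe differed by 1.59. The sphingosine-1-phosphate receptor S1PR3 was 5.26-fold higher, with 9.28 under shFOXA1 and 6.60 under shCtr. PIP, the prolactin-induced secreted protein, read 8.28, 8.73 and 6.18. RGS4, which speeds the switching off of G proteins, read 7.63 with shFOXA1 and LY2157299, 8.61 with shFOXA1 and 5.05 with shCtr, so it lay above control on both knockdown arrays and lower with LY2157299 than without. In the list of RGS and sphingosine-1-phosphate genes 3 of 15 measured members passed 2-fold upward (RGS4, S1PR3 and the ceramide synthase CERS6, at 1.02), 0 were lower, and the list median was 0.04.

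**Figure D2:**
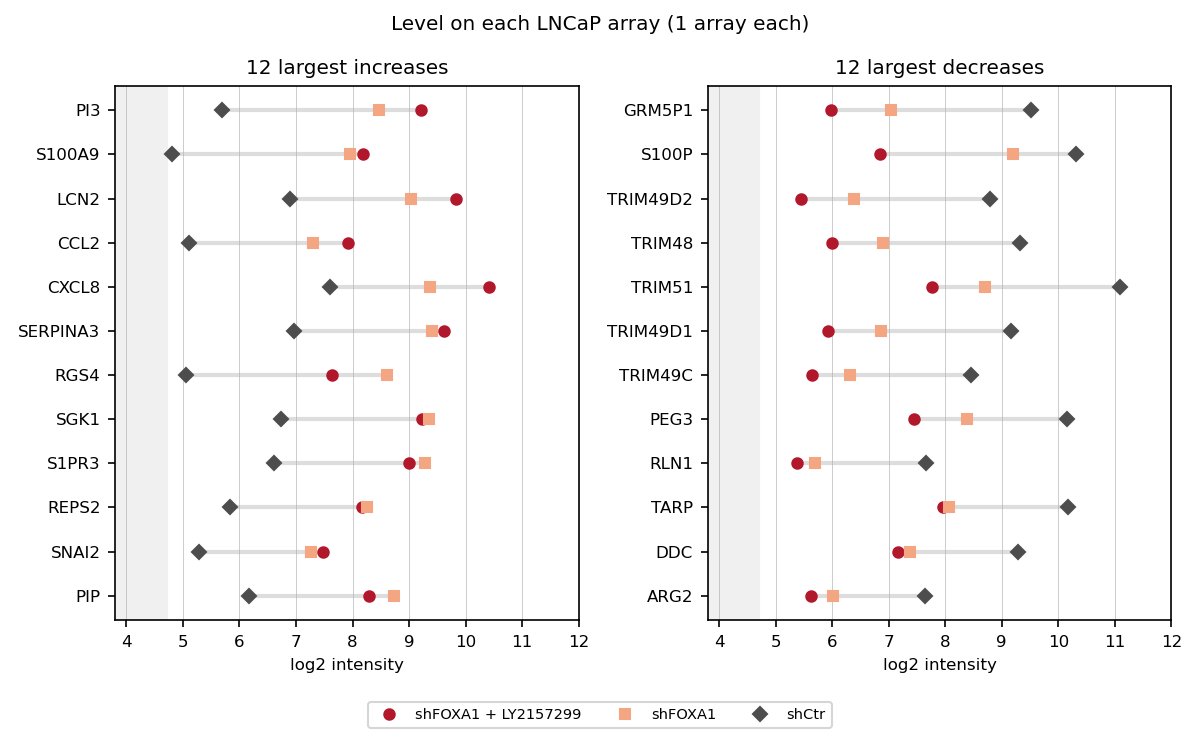
Log2 intensity (horizontal axis) of the 12 genes with the largest increase (left) and the 12 with the largest decrease (right) on 3 LNCaP arrays, 1 array each, with circles for shFOXA1 with LY2157299, squares for shFOXA1 and diamonds for shCtr. The grey band ends at the highest detection floor of these arrays (4.71). The shFOXA1 square lies nearer to the circle than to the diamond for each of the 12 increases, and for S100P it lies nearer to the diamond.

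On the lower side stood a block of TRIM genes, the calcium-binding protein S100P and several prostate and imprinted genes. TRIM51 read 7.76 with shFOXA1 and LY2157299, 8.70 with shFOXA1 alone and 11.09 with shCtr. TRIM48 read 5.99, 6.90 and 9.32. TRIM49D2 gave 5.44, 6.38 and 8.80. TRIM proteins carry a RING domain found in ubiquitin ligases, and these members lie in clusters of closely related copies on chromosome 11. TRIM49D1 differed by -3.23 and TRIM49C by -2.81, so 5 of the 7 measured members of this family were lower, against 0.517% of all genes, while TRIM49 lay near the floor at -0.11 or lower. The family list was chosen with earlier results of these data known, so that share is no test. GRM5P1, a pseudogene of the glutamate receptor GRM5, read 5.97, 7.03 and 9.51, the largest decrease of the comparison at -3.54. Among the measured genes it is the direct neighbour of TRIM48. Related sequences can share hybridisation signal, so single TRIM values are uncertain. In the promoter windows described below, TRIM48 and TRIM49D2 shared 79.0% of bases and TRIM49D1 and TRIM51 46.7%. These windows lie mostly before the transcript, so they do not bear on what the probes read. The share between unrelated windows was not measured.

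S100P, a secreted ligand of the receptor RAGE, read 6.85 with shFOXA1 and LY2157299, 9.20 with shFOXA1 alone and 10.31 with shCtr. Of the 24 genes with the largest differences it had the widest gap between both knockdown arrays, and with LY2157299 it stood at -3.46 against control. PEG3, an imprinted zinc finger gene, read 7.45, 8.39 and 10.15. The relaxin hormone RLN1 read 5.38, 5.70 and 7.66, and its neighbour RLN2 was not detected with shFOXA1 and LY2157299 and lay at -1.21 or lower. DDC, which makes dopamine and serotonin from their amino acid precursors, read 7.16, 7.38 and 9.29. TARP, transcribed in prostate from the gamma T-cell receptor locus, read 7.97, 8.08 and 10.17. ARG2, the mitochondrial arginase that supplies ornithine, read 5.62, 6.02 and 7.65. RLN1, DDC, TARP and ARG2 stood close together on both knockdown arrays, whereas S100P and PEG3 were lower with LY2157299 than without.

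Inflammatory and NF-kB genes were the list with the highest median. NF-kB is a transcription factor that cytokines release from its inhibitors, and its targets include chemokines and acute phase proteins. All 24 measured members lay above 0 and 12 of them passed 2-fold, with a list median of 0.97, where over all genes 48.3% lay above 0, 0.917% were higher and the median was 0.00. The list has 40 genes with a probe, and those beyond the 24 were not measured here. CXCL2, TNFAIP3, SAA2 and S100A8 were not detected with shCtr, so under the floor rule they could not read below 0. The list holds PI3, S100A9, LCN2, CCL2 and CXCL8 and was chosen with earlier results of these data known, so its shares are no test. With no background correction the list's median was 0.48. Besides the genes above, CCL20, a chemokine for CCR6-bearing cells, read 8.85 with shFOXA1 and LY2157299, 7.44 with shFOXA1 and 6.84 with shCtr. The cytokine IL32 read 8.01, 7.48 and 6.07. Serum amyloid SAA1 read 7.21, 6.97 and 5.20. MMP7, a matrix protease of glandular epithelium, read 10.12, 9.80 and 8.52. These 4 genes were each highest with LY2157299. TNF, the cytokine itself, read 6.18, 5.83 and 4.92. NFKBIZ, a nuclear regulator of NF-kB, stood just past 2-fold at 1.01. Not every member was highest with LY2157299. NFKBIZ (7.11, 7.40 and 6.10), the chemokine CXCL10 (6.72, 7.33 and 6.10) and CFB (5.88, 6.06 and 5.03) were highest with shFOXA1 alone. Short of 2-fold were the feedback deubiquitinase TNFAIP3 (at least 0.92), mitochondrial superoxide dismutase SOD2 (0.86) and complement factor CFB (0.85). CCL8, which is outside the list and was picked out after its value was seen, is the next measured gene after CCL2 on chromosome 17 and was higher by 1.84.

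For 17 of these 24 genes a RefSeq promoter window was at hand (GRCh38.p14, 250 bases before to 50 after the gene's start). The NF-kB type motif GGANNNTCC, searched on both strands (its reverse complement has the same letters), was in 11 of these windows (64.7%), against 9.54% of the windows of all measured genes and 9.29% of 27305 windows in the table. The list was made of known NF-kB targets, so this share is no finding about the samples. Of the 12 members 2-fold higher, 9 had a window and 5 held the motif, and of the members not 2-fold apart 6 of 8 windows held it. These 5 windows are printed because they belong to the list with the highest median, with each match in capitals.
CXCL8 (chr4:73740319-73740618, plus strand): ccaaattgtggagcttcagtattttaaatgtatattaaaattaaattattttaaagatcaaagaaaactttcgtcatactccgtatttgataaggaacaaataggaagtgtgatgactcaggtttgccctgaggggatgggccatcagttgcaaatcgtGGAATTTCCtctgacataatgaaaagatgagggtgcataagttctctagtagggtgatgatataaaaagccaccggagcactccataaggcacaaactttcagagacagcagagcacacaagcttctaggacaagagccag
CCL20 (chr2:227813592-227813891, plus strand): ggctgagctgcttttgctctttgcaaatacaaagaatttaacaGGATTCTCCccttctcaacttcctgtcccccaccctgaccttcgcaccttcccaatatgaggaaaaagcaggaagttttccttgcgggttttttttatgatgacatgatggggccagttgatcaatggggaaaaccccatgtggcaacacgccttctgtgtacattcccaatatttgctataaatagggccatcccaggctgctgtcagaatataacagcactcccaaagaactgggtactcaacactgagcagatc
IL32 (chr16:3065153-3065452, plus strand): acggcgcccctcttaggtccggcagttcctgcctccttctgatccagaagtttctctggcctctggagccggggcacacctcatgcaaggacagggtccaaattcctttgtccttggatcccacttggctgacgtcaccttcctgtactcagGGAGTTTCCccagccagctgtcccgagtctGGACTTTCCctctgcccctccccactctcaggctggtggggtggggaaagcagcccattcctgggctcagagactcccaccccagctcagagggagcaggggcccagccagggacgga
NFKBIZ (chr3:101827740-101828039, plus strand): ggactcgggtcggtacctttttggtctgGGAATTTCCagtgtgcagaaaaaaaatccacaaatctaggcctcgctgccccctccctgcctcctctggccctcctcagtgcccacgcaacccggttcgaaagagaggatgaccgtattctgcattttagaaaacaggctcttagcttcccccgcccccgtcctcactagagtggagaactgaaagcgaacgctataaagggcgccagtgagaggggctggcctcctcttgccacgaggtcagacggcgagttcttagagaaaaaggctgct
LCN2 (chr9:128149203-128149502, plus strand): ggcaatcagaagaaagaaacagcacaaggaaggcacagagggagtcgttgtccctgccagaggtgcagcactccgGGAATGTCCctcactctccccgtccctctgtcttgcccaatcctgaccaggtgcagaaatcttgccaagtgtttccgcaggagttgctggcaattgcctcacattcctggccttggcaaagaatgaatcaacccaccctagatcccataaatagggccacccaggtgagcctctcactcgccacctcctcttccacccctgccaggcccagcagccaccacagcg
CXCL8 and NFKBIZ carried the same 9 letters, 91 and 222 bases before the start. IL32 had matches at 98 and 68 bases before the start. The match in LCN2 lay 175 and that in CCL20 207 bases before it. A match is a stretch of letters and does not show binding. Of the windows of all 101 higher genes 14.5% held the motif, and of those of the 57 lower genes 8.16%. The 11 of 76 windows with the motif among higher genes include the 5 printed here from the NF-kB list. The 14.5% is therefore no separate finding. The forkhead motif TGTTTAC, on both strands, was in 0 of the 49 windows of lower genes, 3.95% of those of higher genes, 2.25% of those of all measured genes and 3.41% of all windows, which says only that these letters were not in this part of the lower genes.

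Other secreted proteins and S100 genes were split. Among 17 acute phase and antiprotease proteins, with a median of 0.19 (0.53 over those detected on both arrays), 5 were higher and 1 was lower. The lower one was AZGP1, a zinc-binding glycoprotein of prostate secretions, at 6.61 with shFOXA1 and LY2157299, 8.15 with shFOXA1 and 7.78 with shCtr. It was thus below control with LY2157299 and not with shFOXA1 alone. Of 10 measured S100 genes 2 were higher, 1 was lower and the median was 0.03. S100A10, the annexin A2 partner, stood at 0.65.

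TGF-beta target genes as a list lay above the control hairpin with the receptor kinase inhibitor present. Of 30 measured members 5 were higher, 0 were lower, 19 lay above 0 and the median was 0.28, against 0.917% higher and a median of 0.00 over all genes. Without background correction the list median was 0.12. The higher ones were SNAI2, the anti-angiogenic matrix protein thrombospondin THBS1, the IGF carrier IGFBP3, the death-associated kinase DAPK1 and vimentin VIM. THBS1 read 8.97 with shFOXA1 and LY2157299, 9.21 with shFOXA1 and 7.68 with shCtr. IGFBP3 read 10.00, 10.60 and 8.79, and its second probe differed by 1.27 against 1.21 on the first. VIM, the intermediate filament of mesenchymal cells, read 7.95, 7.41 and 6.94 on its brighter probe and 6.40, 5.77 and 4.84 on the other. VIM and SNAI2 were highest with LY2157299, whereas THBS1 and IGFBP3 were highest with shFOXA1 alone.

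Most measured TGF-beta target genes read lower with shFOXA1 and LY2157299 than with shFOXA1 alone. How many of all genes did so was not counted, so this is a description only. Some gaps were small, as for DAPK1 (6.63 and 6.70) and SKIL (4.72 and 4.86). Several of the target genes that read lower stood between control and shFOXA1. ACTA2, smooth muscle actin, read 10.91 with shFOXA1 and LY2157299, 11.77 with shFOXA1 and 10.41 with shCtr. CDKN2B, the cell cycle inhibitor p15, read 5.83, 6.55 and 5.31. TAGLN, an actin-bundling protein, read 6.93, 7.37 and 6.54. The matrix growth regulator CCN1 read 7.71, 8.34 and 7.57. Others were at or below control with LY2157299. CCN2, connective tissue growth factor, read 4.97, 5.81 and 5.16. JUNB, an AP-1 subunit, read 5.04, 5.62 and 5.05. PMEPA1, which removes receptor-activated SMADs, was the lowest of the list at -0.87, with 8.87 under both treatments, 9.58 under shFOXA1 and 9.74 under shCtr, and its second probe differed by -0.68. The inhibitory SMAD7 stood at -0.10 and -0.44 on its 2 probes, and the SMAD repressor SKIL at -0.01 near the floor. CDKN1A, the inhibitor p21, stood at -0.14 and ID1, a BMP and TGF-beta target, at 0.26.

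**Figure D3:**
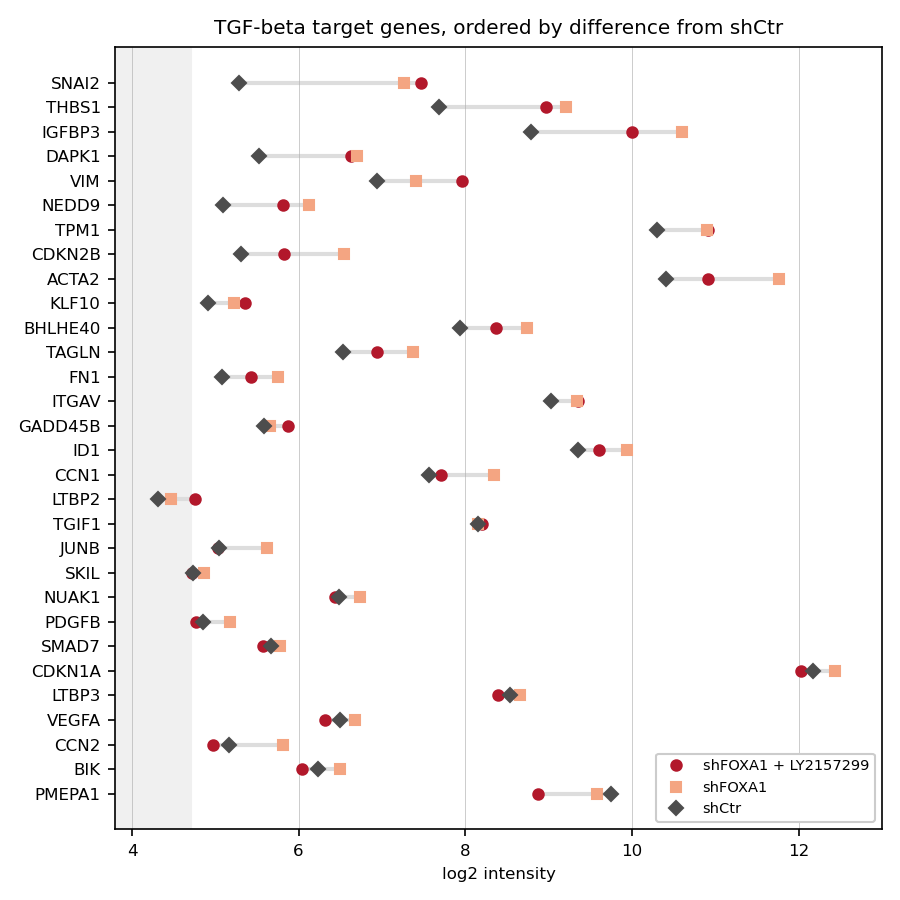
Log2 intensity (horizontal axis) of the 30 measured TGF-beta target genes on 3 LNCaP arrays, 1 array each, ordered by the difference between shFOXA1 with LY2157299 (circles) and shCtr (diamonds), with shFOXA1 as squares and the grey band ending at the highest detection floor. SNAI2 stands at the top with 2.18 and PMEPA1 at the bottom with -0.87.

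Among the pathway's own parts, the co-receptor TGFBR3 stood apart. This proteoglycan presents TGF-beta ligands to the receptors, and it read 7.70 with shFOXA1 and LY2157299, 7.34 with shFOXA1 and 6.08 with shCtr, 3.07-fold higher. It was 1 of 25 measured ligands, receptors and SMADs called at 2-fold, and the list median was 0.01. The ligand TGFB3 was not detected with shCtr and was higher by at least 0.68. TGFBR2 was read by 2 detected probes at 5.01 and 4.72 with LY2157299, near the floor, at least 0.33 and at least 0.04 above control, while the kinase TGFBR1 and the ligands TGFB1 and TGFB2 had no probe detected here. The pseudoreceptor BAMBI stood at -0.68 and the stress cytokine GDF15 at -0.87, reading 11.47, 11.78 and 12.35. The signal carriers differed little, with SMAD2 at 0.09, SMAD3 at 0.25 and SMAD4 at 0.18.

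Androgen-induced genes leaned below control. Of 39 measured members 7 were lower, 1 was higher and 24 lay below 0, with a median of -0.24 (-0.14 without background correction), where 0.517% of all genes were lower. Besides TARP, the prostate transporter SLC45A3 (prostein) read 8.88 with shFOXA1 and LY2157299, 9.07 with shFOXA1 and 10.75 with shCtr. HPGD, which degrades prostaglandins, read 5.48, 5.57 and 7.34. The prostatic acid phosphatase ACP3 read 8.59, 9.61 and 10.05. SLC45A3 and HPGD were nearly level on both knockdown arrays, and ACP3 was lower with LY2157299. HERC3, a HECT-type ligase, stood at -1.23 and TSC22D3, the glucocorticoid-induced leucine zipper, at -1.02. The last of the 7 lower members was the enzyme UGT2B28 at -1.65, whose levels are given below with its family. The transcription factor MAF was the higher member, at 8.77, 8.95 and 7.01. The classic secretory targets differed by less than 2-fold: KLK3, prostate-specific antigen, stood at -0.24, KLK2 at 0.25 and the protease TMPRSS2 at -0.50. ELK4, the measured neighbour of SLC45A3 on chromosome 1 with which it can form a read-through transcript in prostate cancer, stood at -1.11 and -1.13 on its brighter probes and at -0.12 and -0.78 or lower on the dimmer ones.

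Genes that androgen represses did not stand opposite. Among 15 measured, 5 were lower and 1 was higher, and the list median was -0.36 (-0.13 without background correction). The lower ones were PEG3, DDC, the butyrylcholinesterase gene BCHE (-1.48, second probe -1.25), UGT2B11 and UGT2B10. The higher one was CAMK2N1, an inhibitor of CaM kinase II, at 11.87 with shFOXA1 and LY2157299, 11.87 with shFOXA1 and 10.74 with shCtr. UGT enzymes attach glucuronic acid to steroids and other substrates, and the calls differed between their families. UGT2B28, which is on the androgen-induced list and not on this one, read 6.28, 6.24 and 7.92. UGT2B11 read 7.38, 6.94 and 8.69 with a second probe at -0.79. UGT2B17 stood at -0.77 and UGT2B15 at -0.36. In contrast UGT1A1, the bilirubin enzyme, read 7.18, 8.45 and 5.96, and UGT1A6 read 6.63, 7.61 and 5.58. So 3 UGT2B genes were lower and 2 UGT1A genes higher, and both UGT1A genes read lower than under shFOXA1 alone. The third measured UGT1A gene, UGT1A3, stood near control at 0.11, with 5.93, 6.77 and 5.82. The UGT2B genes are close copies, and the promoter windows of UGT2B10 and UGT2B11 shared 91.3% of bases. Whether the UGT2B probes read each other's transcripts was not tested, and promoter windows do not show it. The second probe of UGT1A6 differed by 0.57. Of 16 steroid enzymes none reached 2-fold, with the reductases AKR1C4 at 0.73, AKR1C3 at 0.72 and AKR1C2 at 0.50.

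Matrix and cytoskeletal genes leaned above control. The extracellular matrix list had 24 measured genes, 3 of them higher and 0 lower, and its median was 0.32, but 0.12 without background correction and 0.08 at a detection p below 0.05. Besides MMP7 and THBS1 this was COL18A1, the collagen that yields endostatin, at 7.09 with shFOXA1 and LY2157299, 6.43 with shFOXA1 and 5.55 with shCtr. The laminin chain LAMB3 stood at at least 0.97. Among 28 actin and smooth muscle genes, with a median of 0.23, 3 were higher and 0 lower. These were the actins ACTA1 (6.35, 6.38 and 4.78) and ACTG2 (7.95, 8.35 and 6.62) and the myosin light chain kinase MYLK (6.58, 7.82 and 5.15). The LIM cofactor FHL2 was not detected with LY2157299 and stood at -0.66 or lower, with 6.27 under shFOXA1 and 5.37 under shCtr. MYLK and FHL2 showed the wide gaps between the knockdown arrays, and ACTA1 none.

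Of 22 mesenchymal markers with a probe only 8 were measured, and 2 of these were higher, SNAI2 and VIM. Over the measured members the median was 0.31, but 0.10 without background correction and 0.49 in the authors' processed table. CDH2, N-cadherin, was not detected on these arrays. Epithelial junction genes had a median of 0.04 with 2 of 29 lower, the cadherin CDH26 (-1.32, other probes -1.19 and -0.40) and the claudin CLDN8 (-1.02, second probe -1.13). E-cadherin CDH1 stood at 0.25 and EPCAM at -0.21. Of 18 listed keratins with a probe 7 were measured, all of which lay above 0, and none reached 2-fold. KRT16P2, a keratin pseudogene, was at least 0.83 above control at 5.51 and read 7.07 with shFOXA1 alone. It was not detected with shCtr, so under the floor rule it could not read below 0. Of 14 measured integrins none reached 2-fold, and ITGA6 was furthest at 0.55.

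**Figure D4:**
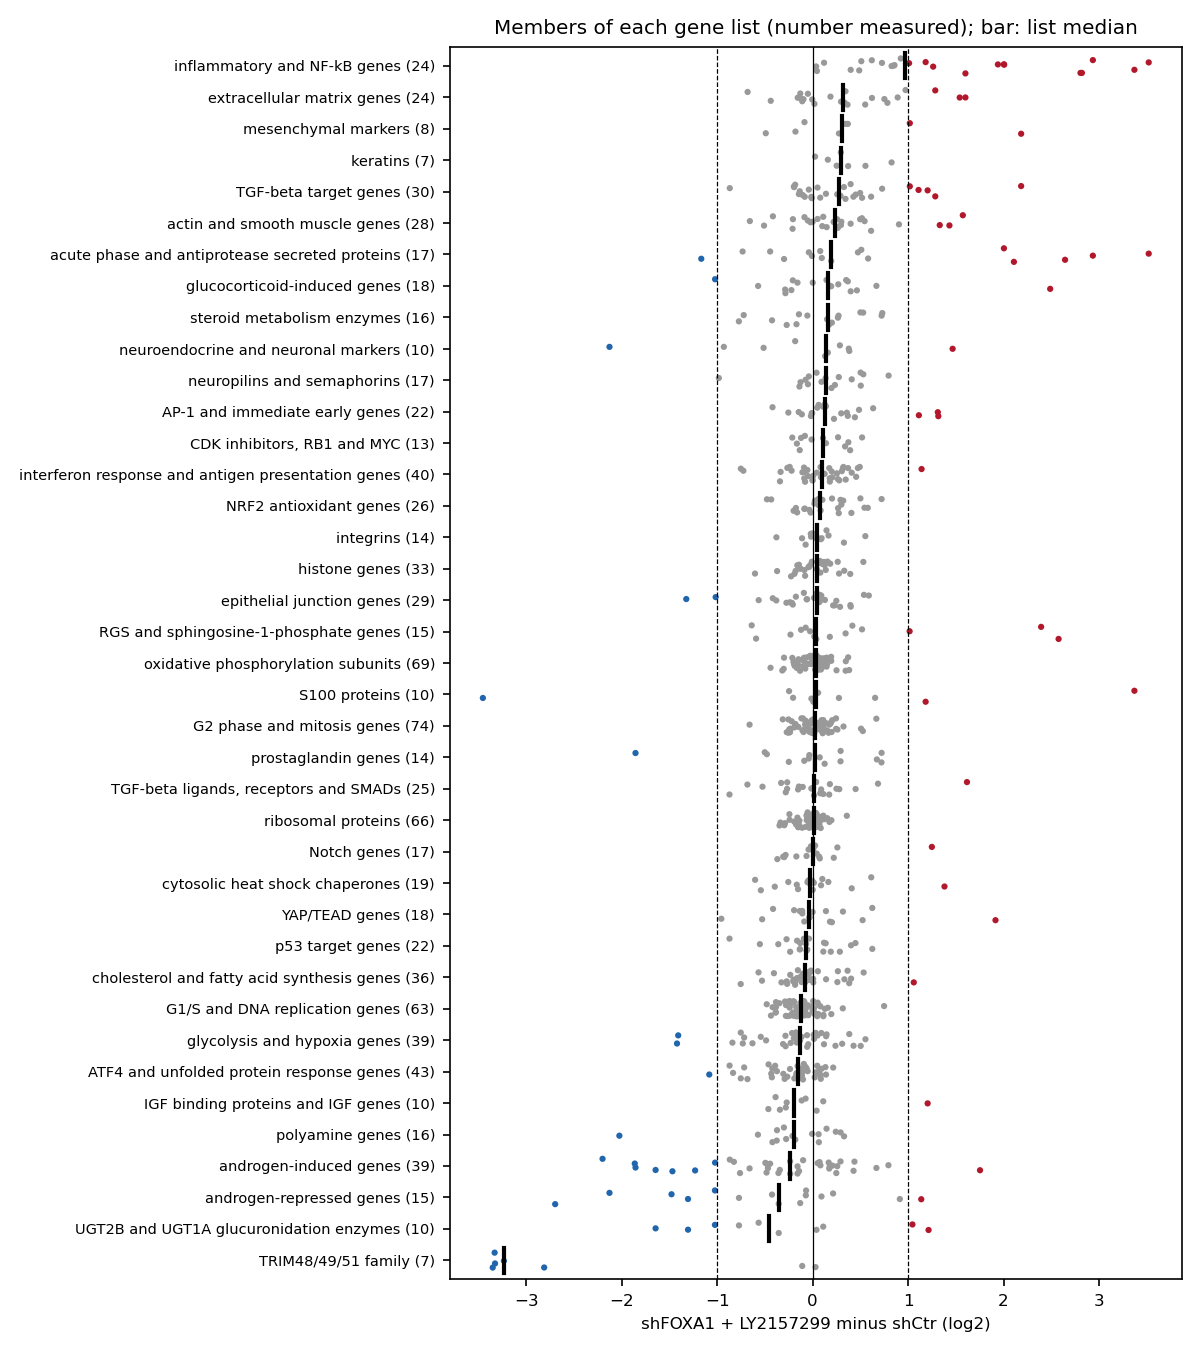
Log2 difference (shFOXA1 with LY2157299 minus shCtr, horizontal axis) of every measured member of 39 gene lists, 1 row per list with the number measured in brackets. Black bars are list medians, red and blue points are members at least 2-fold higher or lower, and lists run from inflammatory and NF-kB genes (median 0.97) to the TRIM family (median -3.23).

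Cell cycle lists were near control. Of 74 genes of G2 phase and mitosis none reached 2-fold, 40 lay above 0 and the median was 0.02. CKS2, a CDK-binding subunit, was highest at 0.67 and the centromere gene CENPN lowest at -0.66. The kinetochore gene SPC25 stood at -0.31, with 6.14 under both treatments, 5.67 under shFOXA1 and 6.45 under shCtr. Replication genes leaned lower without a call: 45 of 63 lay below 0, the median was -0.12, the helicase subunit MCM2 stood at -0.42 and GINS4, of the helicase complex, at 0.75. The CDK inhibitor, p53 target and histone lists had 0 members called, with medians of 0.11, -0.07 and 0.05. So did ribosomal proteins (0.01) and oxidative phosphorylation subunits (0.03), with 66 and 69 members measured.

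Stress and nutrient lists leaned lower. Of 43 genes of the ATF4 and unfolded protein response 32 lay below 0, 1 was lower and the median was -0.15. The lower one was SLC7A5, the leucine transporter, at 5.45 with shFOXA1 and LY2157299, 6.60 with shFOXA1 and 6.53 with shCtr. NUPR1, a stress-induced chromatin protein, read 9.13, 9.98 and 10.00. Both stood at control level with shFOXA1 alone and below it with LY2157299. SLC1A5, a glutamine transporter outside the list and picked out after its value was seen, stood at -1.12. Of 39 glycolysis and hypoxia genes 2 were lower, the vasodilator peptide ADM (5.51, 6.20 and 6.93) and the HIF target ANKRD37 (6.89, 7.28 and 8.30), with a median of -0.14. The hexokinase HK2 stood at -0.84. Cholesterol and fatty acid genes had a median of -0.08 and 1 higher member, the desaturase FADS2 (1.06). Of polyamine genes ARG2 was the 1 member called, with the list median at -0.20.

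Single members were called in several other lists. The AP-1 list had 3 of 22 higher, JUN (9.52 with shFOXA1 and LY2157299, 9.09 with shFOXA1 and 8.20 with shCtr), the zinc finger factor KLF6 (8.40, 8.19 and 7.09) and EGR1 (5.91, 5.41 and 4.80). Each of these immediate early transcription factors was highest with LY2157299. Of the 22 measured members 15 lay above 0 and 7 below, and the list median was 0.13. FOS (-0.42 or lower) and FOSB (-0.25 or lower) were not detected with LY2157299. HES6 was the 1 of 17 Notch genes called, a HES factor that blocks HES1, at 11.04, 10.57 and 9.79. TUBB3, the neuronal tubulin, was higher by 1.47 among 10 measured neuronal markers, of which DDC was lower. AMOT, an adaptor that holds YAP at junctions, was higher by 1.92 among 18 YAP/TEAD genes, whose target ANKRD1 stood at -0.96. GBP2, a guanylate-binding protein, was higher by 1.14 among 40 interferon genes, and the heat shock protein HSPB8 by 1.38 among 19 chaperones. CRYAB, another small heat shock protein, stood at 0.61, with 6.50, 8.13 and 5.89. Of the lists of NRF2 genes and of neuropilins and semaphorins no member was called, and their medians were 0.07 and 0.14. SEMA6A was close to the threshold at -0.98. Further list medians were 0.16 for glucocorticoid-induced genes (SGK1 higher, TSC22D3 lower), 0.02 for prostaglandin genes (HPGD lower) and -0.19 for IGF genes (IGFBP3 higher).

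Of the genes called, 41 higher and 25 lower ones belong to a list. From the rest a few are given, picked after their values were seen. TMSB4X, the actin monomer binder thymosin beta-4, was the brightest higher gene, at 12.46 with shFOXA1 and LY2157299, 12.09 with shFOXA1 and 10.97 with shCtr. MME, the peptidase neprilysin, read 11.37, 11.35 and 10.36. ANGPT2, an angiopoietin, read 6.59, 5.47 and 5.22, and the kinase MAP2K6 read 5.75, 4.46 and 4.71. ANGPT2 and MAP2K6 were thus near control with shFOXA1 alone. SOX9, a transcription factor of prostate development, is the next measured gene after MAP2K6 and read 6.80, 7.07 and 5.46. FAXDC2, a hydroxylase family member, read 5.00, 6.56 and 6.46, level with control under shFOXA1 alone and below it with LY2157299. SPRY4, a feedback inhibitor of receptor kinase signalling, read 4.84, 5.27 and 6.33. INPP4B, a phosphoinositide phosphatase, read 5.53, 5.47 and 6.75. The transporter SLC30A4, which carries zinc, stood at -1.05 and -0.80 on 2 probes.

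Neighbouring genes were called together in 14 pairs of consecutive measured genes, 6 higher and 8 lower, out of 11012 genes placed on a chromosome. Besides the TRIM, UGT2B and relaxin genes, these included S100A9 with S100A8 on chromosome 1, PI3 with SEMG1 on chromosome 20, GAS1 with DAPK1 on chromosome 9 and RBBP7 with REPS2 on the X chromosome. SEMG1, which encodes semenogelin, was not detected with shCtr and was at least 1.23 higher. The promoter windows of RLN1 and RLN2 shared 89.3% of bases.

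Second probes bear on the calls. Where the second probe was also detected on each array, 23 calls of higher genes could be compared, and the second reading passed 1.5-fold for 19 and 2-fold for 16. Of 12 such calls of lower genes, 11 passed 1.5-fold and 6 passed 2-fold. No second probe lay on the other side of 0. Weak second readings were those of RTN1 (1.97 and 0.34), ANTXR1 (1.08 and 0.06), MBNL2 (1.18 and 0.48), UGT1A6 (1.05 and 0.57) and SLC4A4 (-1.13 and -0.36). For these the call rests on the brighter probe.

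**Figure D5:**
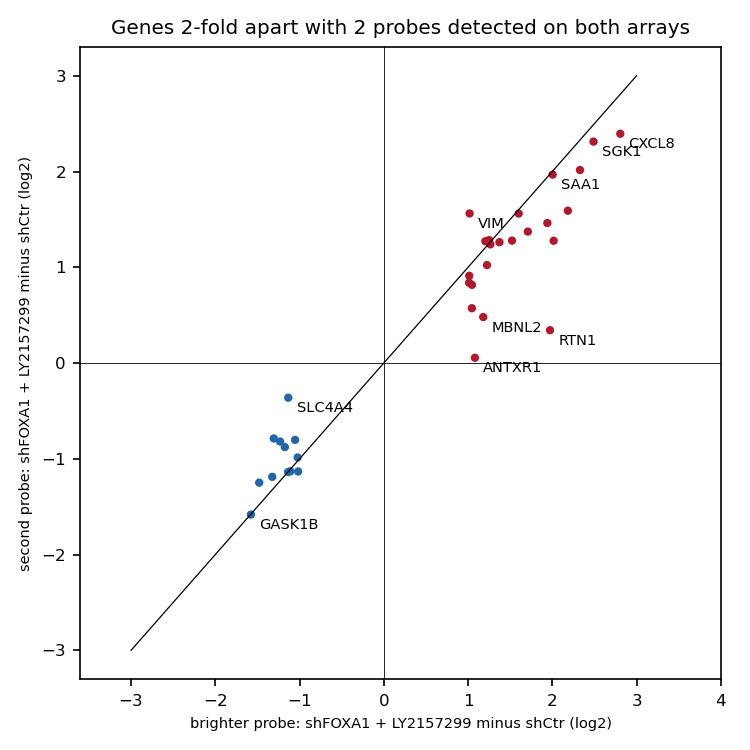
Log2 difference (shFOXA1 with LY2157299 minus shCtr) on the second probe (vertical axis) against the brighter probe (horizontal axis) for the 35 genes at least 2-fold apart on the brighter probe with both probes detected on both arrays. The line marks equal values, red points are higher and blue points lower genes, and RTN1, ANTXR1, MBNL2 and SLC4A4 lie far from the line.

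The genes that differed from control were also read on the LNRII arrays, which were not used to choose them. Of 101 higher genes 86 were measured there, and with TGFB3 against vehicle 25 were at least 2-fold higher and 3 lower, with a median of 0.59, against 1.87% higher and 1.16% lower over all genes of that comparison. Among the 25 were SGK1 (3.29), MMP7 (3.04), TUBB3 (2.44) and SAA1 (1.00), and, not detected with vehicle, SERPINA3 (at least 2.89), MAF (at least 2.28) and SNAI2 (at least 1.77). The 3 lower ones were CCL20 (-1.62), HES6 (-1.29) and the nucleotidyltransferase TENT5C (-1.02). Of the 12 largest increases, SERPINA3, SGK1, REPS2, SNAI2 and PIP were among the 25. PI3, S100A9 and RGS4 were detected on neither LNRII array. Short of 2-fold there were LCN2 (-0.66), CCL2 (0.59), S1PR3 (0.96) and CXCL8 (at least 0.23). Of 57 lower genes 50 were measured, 10 were lower and 5 higher with TGFB3, and the median was -0.16. The 10 included DDC (-1.36), PRUNE2 (-1.15), CDH26 (-2.33) and the related genes UGT2B10, UGT2B11 and UGT2B28. Higher with TGFB3 were AZGP1 (2.32), HERC3 (1.91), AADAT (1.52), TSC22D3 (10.16 with TGFB3, 8.66 with vehicle) and FAXDC2 (at least 1.19). AZGP1, FAXDC2, HERC3, AADAT and TSC22D3 thus stood above vehicle with ligand in LNRII, and below the control hairpin with shFOXA1 and LY2157299 in LNCaP. LNRII derives from LNCaP, all arrays were normalized together, and this comparison too has 1 array on each side.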

How the data were processed

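RNA of 5 cultures was read on 1 Illumina bead array each. The deposited table holds each probe's mean bead intensity, not normalized per the file headers, with values that show no background subtraction, and a detection p-value deposited beside each. GenomeStudio is named for the readout, per the submitters' processing notes. A second deposited table holds the authors' processed intensity values, for which no method was found in the sources. Their probe ranks matched the scanner table (Spearman's rho 1.00), and their column medians were 4.7 in LNRII and 4.5 in LNCaP. Some run below 0, and their scaling stays unknown.

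Between 32.3% and 38.1% of probes were detected and mean intensities were 278 to 310 on the 5 arrays, whose number limits the precision. limma 3.58.1 (R 4.3.3) was used for normexp background correction from detection p-values (neqc, offset 16), quantile normalization over 5 arrays and log2, and the steps were tested on simulated data. A gene's value came from its brightest probe by mean over 5 arrays, of those detected on any array at p below 0.01. Of 47306 probes 30107 have 1 symbol, 8 several and 17191 none in the platform table, and 30068 Entrez identifiers matched GRCh38.p14. Genes without a named probe are not analysed here. Python 3.11.15 with pandas 2.3.3 and matplotlib 3.10.9 did the rest.

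With 1 array per group no test was run. Named are the 12 largest differences in each direction, up to 4 members of each of 39 lists by size of difference, and a fixed set that includes FOXA1, KLK3, SMAD7 and CDH1. Other genes are marked as picked after their values were seen, and some list members beyond these are given for their role. Genes named only as neighbours, for their second probe or for their LNRII values were also picked after their values were seen, without a mark. The members and lists were chosen with earlier results of these data known. The 12 alternative settings concern background, normalization, detection, probe choice, floor and fold threshold.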

Additional observations from a re-analysis of the deposited data

Results flagged for a closer look

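Probes without 1 gene symbol stood outside the comparison. Of 4280 such probes detected on either array, 17 (0.397%) were at least 2-fold higher with shFOXA1 and LY2157299 than with shCtr and 18 (0.421%) were at least 2-fold lower. They drew attention because they carry differences that no named gene reports. Among measured probes with 1 gene symbol, the shares were 0.898% and 0.449%.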

How the results depend on the processing

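The counts of genes 2-fold higher and lower were 37 and 20 without background correction, 53 and 27 with an offset of 50, and 156 and 98 in the authors' processed table. At 1.5-fold they were 335 and 258, and at 3-fold 32 and 16. Under 6 other settings higher genes numbered 93 to 112 and lower genes 51 to 60, and probe by probe 132 probes were higher and 66 lower. All 101 higher and 57 lower genes stayed 2-fold apart in the authors' processed table, read with values below 16 raised to 16. That table ranks the probes as the scanner table does and gives more calls, so it is no separate check. Without background correction 37 of the 101 and 20 of the 57 stayed 2-fold apart. No named gene past 2-fold changed sign under an alternative. Those that fell short of 2-fold numbered 21 without background correction, 15 with offset 50, 3 with the mean of probes (UGT1A6, CDH26 and TSC22D3) and 1 with median scaling (CERS6). The list medians kept their sign for inflammatory, TGF-beta target, matrix, actin, androgen-induced and UGT genes, with 0.48 to 1.24 for inflammatory and 0.12 to 0.31 for TGF-beta target genes. The median changed sign or reached 0 for 6 lists near 0, such as Notch and prostaglandin genes. No paired analysis was possible because each group has 1 array.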
